A study of Homo sapiens with 12 samples.

Results

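The 2 settings of the Hippo pathway that are opposite by design were set against each other in MCF10A cells, an immortalised line of human mammary epithelium: cells depleted of YAP and TAZ, and cells treated with an inhibitor of the Hippo kinases MST1 and MST2. The 6 libraries compared were chosen by their labels from 12 in all, 3 per group, and every gene of the table entered. The group siYT_DMSO was transfected at 11 nM with siRNAs (2 sets) that target YAP and TAZ, and the group siC_XMU at 22 nM with control siRNA. The labels do not say whether the 11 nM holds for each set or for both together. After 48 h the medium was changed, to DMSO for siYT_DMSO and to 5 µM XMU-MP1, an inhibitor of MST1 and MST2, for siC_XMU, and the harvest followed after another 6 h. The 3 libraries of siC_DMSO (control siRNA at 22 nM, DMSO) gave the reference level. All groups carry the genotype label WT, come from the same line and were grown with horse serum, insulin, hydrocortisone and epidermal growth factor. The 2 groups differ in siRNA and drug at once, and the siRNA had acted for longer than the drug, so the part of each treatment in a difference can be read only beside siC_DMSO. Levels are given as CPM (counts scaled to a common library size with edgeR's trimmed mean of M values), for the libraries a, b and c of each group in that order. The labels do not say whether these letters stand for separate cultures, so p-values measure the spread between these libraries, which may be technical.

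In the Hippo pathway MST1 and MST2 (genes STK4 and STK3) and the kinases LATS1 and LATS2 phosphorylate the coactivators YAP (YAP1) and TAZ (WWTR1), which keeps them out of the nucleus. YAP and TAZ bind DNA through the TEAD factors, and in epithelia they are known for driving growth genes and for holding back terminal differentiation. The transcription factor p63 (TP63) maintains the basal layer of stratified epithelium. The title of the study names deltaNp63, a transcript form of TP63, and Hippo signalling outside its usual route. Counts here are per gene, so the TP63 forms are not told apart.

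Library totals ran from 46901372 to 57817609 counts in siC_XMU, from 25246464 to 58389794 in siYT_DMSO, where library a was the smallest, and from 55975525 to 67953633 in siC_DMSO. Ribosomal RNA took 1.02 to 2.52% of counts in siC_XMU and 1.86 to 8.35% in siYT_DMSO. Leaving it out before scaling gave 4044 genes higher and 3876 lower, against 4040 and 3886 with it. Of 10 basal mammary markers all 10 were measured above the filter, with a summed level of 7964 to 10256 CPM in siC_XMU and 8546 to 22698 CPM in siYT_DMSO. Of markers of other cells, the luminal list summed to 137 to 225 CPM in siC_XMU and 103 to 152 CPM in siYT_DMSO (1 of 6 tested lower, 0 higher), and the fibroblast list to 18.9 to 31.5 and 26 to 75 CPM (1 of 6 higher, PDGFRA, at 0.172, 0.153 and 0 against 1.35, 1.41 and 8.8 CPM, a call lost without siYT_DMSO c). PDGFRA passed the filter only through its level in siYT_DMSO. The endothelial list stood between 0.937 and 2.24 CPM in both groups (0 of 3 called), and the leukocyte list is given with S100A8 below. Among single markers EMCN and ERG (endothelium) and ADIPOQ (fat) had 0 counts in all 9 libraries, and the highest level in any library was 0.249 CPM for CD3E (T cells) and 0.0831 CPM for PTPRC (leukocytes). The part of these markers in the results was not tested.

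The comparison asks how far apart the transcriptome lies when YAP and TAZ are removed and when the kinases that restrain them are blocked. In siYT_DMSO the genes of the outer, cornifying epidermis and its lipid barrier were higher, by medians of 7.28 and 5.38 on the log2 scale, or 7.08 and 4.99 where members at 0 in siC_XMU took their bound. In bulk RNA, fewer cells of a type and less RNA per cell cannot be told apart. Of the genes of DNA replication 32 of 33 were lower and of those of mitosis 29 of 30, as were 14 of 22 known targets of YAP and TAZ, 16 of 27 genes of the ATF4 response and protein folding and 11 of 17 heat shock chaperones. Of 17168 genes tested with edgeR's quasi-likelihood test, 4040 were higher in siYT_DMSO (23.5%) and 3886 lower (22.6%) at a Benjamini-Hochberg adjusted p under 0.05, 2763 and 2373 of them by at least 2-fold. The filter on low counts was passed only through siYT_DMSO by 1176 of the genes tested, and 446 of these are among the 4040. For them a difference was built into their entry, and genes that passed only through siC_XMU were not counted. A change of at least 16-fold was reached by 731 higher and 336 lower genes. These were not split by filter entry or by counts of 0. Of the genes tested, 366 were at 0 in all siC_XMU libraries and 226 in all siYT_DMSO libraries. For such genes the fitted change depends on the prior count, so 731 and 336 are not to be weighed against each other. In 3943 of the higher and 3815 of the lower genes the 3 libraries of the groups did not overlap. Over all 17168 genes tested, called or not, 4827 were without overlap in the higher direction and 4762 in the lower. Called genes mostly separate with 3 libraries per group, so these counts add no evidence of their own. The 95% interval lay within 2-fold either way for 4781 genes, and of the 9242 genes not called 5746 had an interval reaching past 2-fold, so they were not shown to be alike. The median log2 fold change over all genes tested was near 0 (-2.4e-05), and list counts below are to be read against 23.5% and 22.6%. A signed or bare value below that has no other unit is a log2 fold change of siYT_DMSO over siC_XMU, and levels joined by "against" are siC_XMU first unless named.

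**Figure D1:**
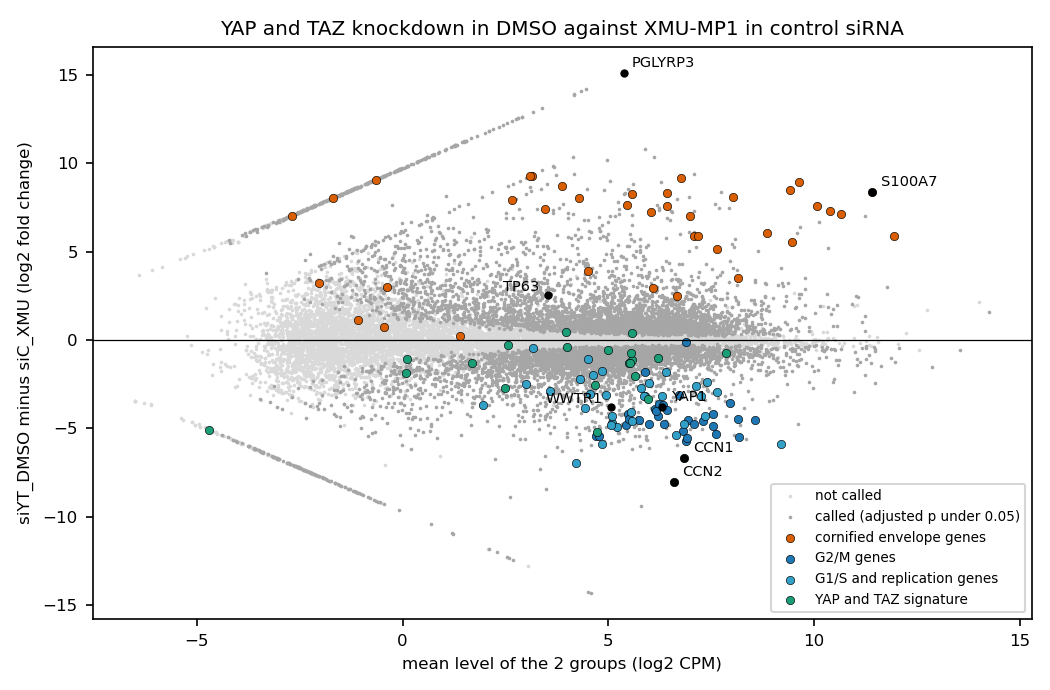
Each point is a gene tested: the horizontal axis is the mean level of siYT_DMSO and siC_XMU (log2 CPM) and the vertical axis the log2 fold change of siYT_DMSO over siC_XMU, with members of 4 gene lists in colour and named genes in black. The cornified envelope genes lie above the line and the cell cycle genes below it, and the straight outer lines are genes with 0 counts in all libraries of the lower group, whose fitted change depends on the prior count.

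Against the reference group each treatment has its own values. In siYT_DMSO against siC_DMSO 3588 genes were higher (20.9%) and 4001 lower (23.3%), and in siC_XMU against siC_DMSO 1421 were higher (8.28%) and 1970 lower (11.5%). Both comparisons use the same siC_DMSO libraries, so their values are set side by side below with no count of shared genes. The 3391 genes called for XMU-MP1 became 2117, 1892 and 2041 without siC_DMSO a, b or c and 1854 without siC_XMU b.

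The siRNA targets YAP1 and WWTR1 were low in every siYT_DMSO library. YAP1 (gene ID 10413 on the plus strand of chromosome 11, bases 102109957 to 102233424) measured 142, 148 and 155 CPM with XMU-MP1 and 14.1, 9.77 and 8.36 CPM in siYT_DMSO, with 222, 244 and 211 CPM in siC_DMSO. All siYT_DMSO libraries lay below all others (log2 fold change -3.80, SE 0.19, adjusted p = 1.77e-06), and the XMU-MP1 libraries lay below the reference too (-0.61, adjusted p = 0.0359). WWTR1 (gene ID 25937 on the minus strand of chromosome 3, bases 149517229 to 149724788) stood at 61.1, 66.2 and 61.2 CPM in siC_XMU, 4.79, 4.8 and 3.9 CPM in siYT_DMSO and 38.3, 26.3 and 41.7 CPM in siC_DMSO. Here the XMU-MP1 libraries were the highest of the 3 groups (log2 fold change -3.81, SE 0.20, adjusted p = 2.02e-06; XMU-MP1 against DMSO 0.83, adjusted p = 0.0138).

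Among the DNA-binding partners of YAP and TAZ the members differed in direction. Of 9 genes tested in the list of YAP, TAZ, TEAD and VGLL factors 1 was higher and 5 lower, 2 of the 5 being the siRNA targets. TEAD3 measured 29.5, 32.6 and 33.3 CPM with XMU-MP1 and 192, 219.9 and 227 CPM in siYT_DMSO, 6.7-fold higher with no overlap (2.74, adjusted p = 1.16e-06). TEAD1 stood at 111, 135 and 162 against 66.8, 48.4 and 52.2 CPM (-1.29, adjusted p = 0.000286) and TEAD4 at 23.9, 32 and 28.3 against 7.06, 2.54 and 3.49 CPM (-2.70, adjusted p = 0.000212). So TEAD3 was high where TEAD1 and TEAD4 were low. The reference lay between the groups for TEAD3 (51.3, 58.9 and 47.8 CPM) and above both for TEAD4 (38.7, 39.6 and 46.2 CPM). VGLL1, a TEAD cofactor, was also lower (-3.22, adjusted p = 0.00336). TEAD2, VGLL3 and VGLL4 did not pass (-0.16, -0.42 and 0.36). Without siYT_DMSO a 2 members were higher and 6 lower, VGLL3 then being lower.

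The upstream kinases and their adaptors were lower more often than higher: of 20 tested 10 were lower and 2 higher. STK3 (gene ID 6788 on the minus strand of chromosome 8, bases 98433048 to 98944329), which encodes MST2, measured 24.9, 28.6 and 32.2 CPM with XMU-MP1 and 8.27, 7.09 and 6.88 CPM in siYT_DMSO (log2 fold change -1.95, SE 0.17, adjusted p = 2.1e-05). LATS2 (gene ID 26524 on the minus strand of chromosome 13, bases 20973036 to 21061549), itself a known YAP target, stood at 32, 51.4 and 49 against 6.69, 7.86 and 7.78 CPM (log2 fold change -2.56, SE 0.20, adjusted p = 1.24e-05), and siC_DMSO lay between at 23.6, 23.5 and 24.1 CPM. For both genes no library of the groups overlapped. STK4 (gene ID 6789 on the plus strand of chromosome 20, bases 44966470 to 45080021), which encodes MST1, stood at 109.9, 75.8 and 132 against 65.8, 45.3 and 68.6 CPM (-0.82, adjusted p = 0.0253), and LATS1 (gene ID 9113 on the minus strand of chromosome 6, bases 149658153 to 149718256) at 42.6, 36 and 43.6 against 24.4, 17.3 and 22.2 CPM (-0.93, adjusted p = 0.00202); the closing part gives the settings in which these calls were lost. Some adaptors of the kinases were lower: SAV1, the scaffold of MST1 and MST2, at -1.49, MOB1A, a LATS activator, at -1.48, and WWC2 and FRMD6, upstream regulators, at -1.81 and -1.68. AMOTL2, an angiomotin that binds YAP and is a known target of it, had the lowest fold change of the list, at 114 ± 34.9 CPM in siC_XMU against 11.4 ± 3.07 CPM (-3.32; mean ± SD, n = 3 per group). PTPN14, a phosphatase that binds YAP, was lower too (-0.59, adjusted p = 0.0499), a call lost in 10 of 23 settings. The other 8 members, MOB1B, NF2, WWC1, AMOTL1, TAOK1, TAOK2, TAOK3 and STK38L, did not pass (-0.41 to 0.25). The higher members were MAP4K4, a kinase parallel to MST1 and MST2 (1.33, adjusted p = 0.00037), and STK38 (0.82, adjusted p = 0.0462). STK38 lost its call in 12 of 23 settings, among them each of those without siC_XMU a or b or without siYT_DMSO a, b or c. Over the settings tried 1 to 3 members were higher, 3 of them with the replicate block, where AMOTL1 passed (adjusted p = 0.0393).

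**Figure D2:**
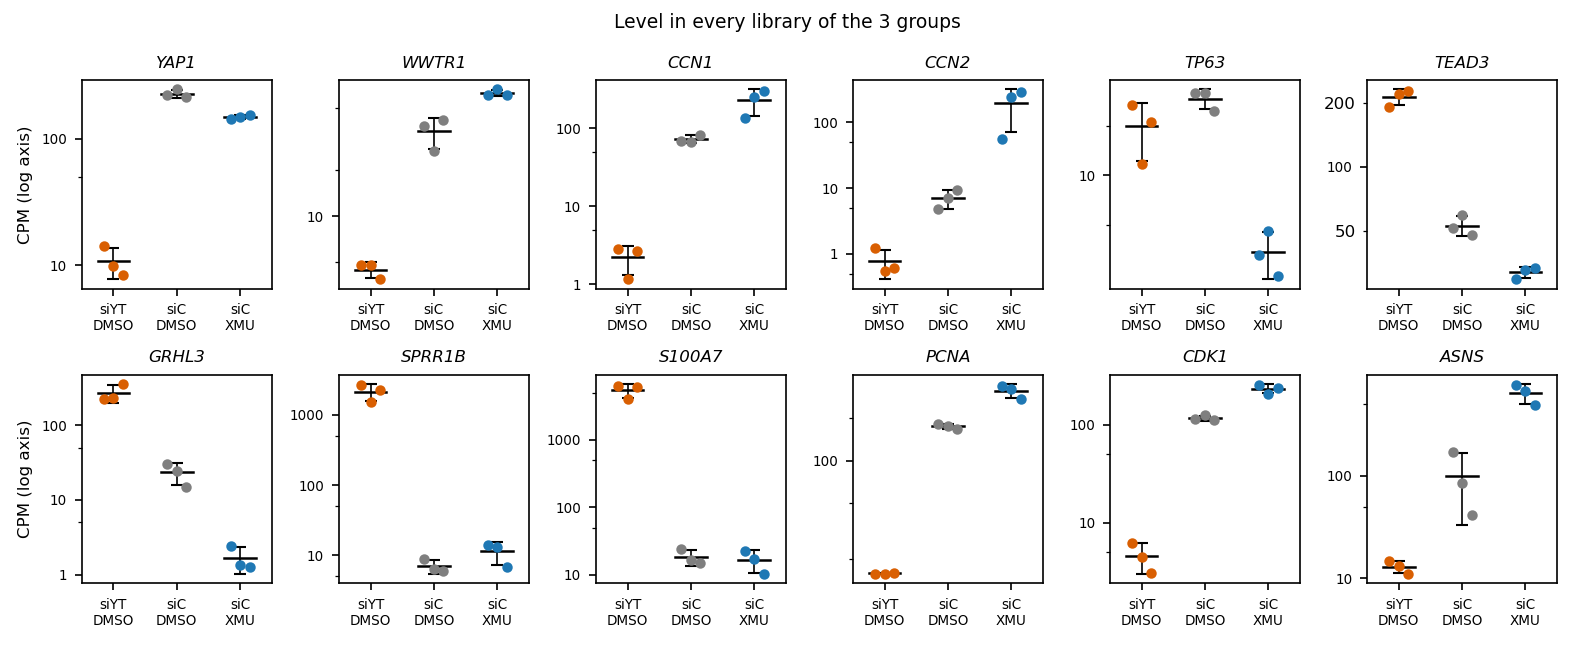
Each panel is a gene, with the level in each library (CPM, log axis) as points for siYT_DMSO, siC_DMSO and siC_XMU and the mean ± SD of 3 libraries as bars. TP63 is lowest in siC_XMU, TEAD3, SPRR1B and S100A7 are high only in siYT_DMSO, and CCN2, GRHL3 and ASNS have siC_DMSO between the treated groups.

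The target genes of YAP and TAZ were low in siYT_DMSO. Of 22 signature genes tested 14 were lower and 0 higher, the median being -1.29 on the log2 scale, and -1.21 where ANKRD1, at 0 in siYT_DMSO, took its bound. Over the settings tried 10 to 15 were lower, 10 of them with 12 libraries, and 0 to 1 higher. Against siC_DMSO the same list had a median of -1.68 in siYT_DMSO (0 higher and 17 lower) and -0.24 in siC_XMU (4 higher and 5 lower). So the list as a whole was not raised in siC_XMU. CCN2 (gene ID 1490 on the minus strand of chromosome 6, bases 131948176 to 131951372), a secreted matricellular protein, stood at 55.3, 241 and 285 CPM in siC_XMU, 1.21, 0.541 and 0.60 CPM in siYT_DMSO and 4.86, 7.04 and 9.21 CPM in siC_DMSO. The 3 groups did not overlap, with siC_DMSO in the middle, and library a of siC_XMU was the lowest of its group (log2 fold change -8.05, SE 0.73, adjusted p = 3.04e-05, a 264-fold difference). CCN1 (gene ID 3491 on the plus strand of chromosome 1, bases 85580761 to 85583950), a related matricellular protein, showed the same order of groups, at 134, 251 and 301 CPM in siC_XMU, 68.2, 67.1 and 82.4 CPM in siC_DMSO and 2.84, 1.16 and 2.65 CPM in siYT_DMSO (log2 fold change -6.71, SE 0.44, adjusted p = 5.36e-06). CCDC80, a matrix protein, stood at 40.2, 51.8 and 61.4 CPM in siC_XMU against 2.93, 0.395 and 1.06 CPM in siYT_DMSO (-5.21, adjusted p = 0.000139), with 18.4, 22.6 and 25.4 CPM in siC_DMSO. IGFBP3, which binds insulin-like growth factors, was also lowest in siYT_DMSO (-2.70, adjusted p = 0.00526). Not every member separated the groups: FJX1 measured 5.28, 4.67 and 9.45 CPM with XMU-MP1 and 7.39, 2.81 and 5.65 CPM in siYT_DMSO, overlapping each other, against 57.9, 50.9 and 53 CPM in siC_DMSO, and F3, tissue factor, likewise (0.37, 95% interval -0.42 to 1.16). For these genes the treated groups both lay below the reference.

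The promoter of CCN2 is shown because it holds the TEAD letters 3 times, and that of THBS1, thrombospondin, because it was lowest in siYT_DMSO too, at 9.81, 1.75 and 7.02 CPM against 117, 181 and 220.2 CPM in siC_XMU and 438, 389 and 555 CPM in siC_DMSO (-4.83, adjusted p = 0.000128). Both are given 5′ to 3′ from 200 bases to 1 base before the start listed by RefSeq (GRCh38.p14), with the TEAD letters GGAATG in capitals on either strand. CCN2 covers chr6:131951373-131951572 (minus strand), with matches beginning at -169, -104 and -95 from the start, and THBS1 covers chr15:39580879-39581078 (plus strand), with a match at -46.
CCN2: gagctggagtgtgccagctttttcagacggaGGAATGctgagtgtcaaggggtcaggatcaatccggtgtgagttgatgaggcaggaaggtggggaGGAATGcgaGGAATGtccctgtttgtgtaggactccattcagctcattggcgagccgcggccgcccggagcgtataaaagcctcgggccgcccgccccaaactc
THBS1: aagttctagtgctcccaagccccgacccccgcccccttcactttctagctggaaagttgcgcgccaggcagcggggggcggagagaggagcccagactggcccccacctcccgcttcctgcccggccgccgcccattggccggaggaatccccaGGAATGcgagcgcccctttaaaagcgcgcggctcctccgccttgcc

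Genes of the cornified envelope, the cross-linked protein shell of dead skin cells, were the highest group in siYT_DMSO. Of the 44 listed genes 38 had enough counts to be tested, and 34 of these were higher and 0 lower. The median over the list was 7.28 on the log2 scale, and 7.08 where members at 0 in siC_XMU took their bound. Of the 38, 9 passed the filter only through their level in siYT_DMSO, so a difference was built into their entry, and 8 of those 9 are among the 34. In siC_XMU against siC_DMSO the list's median was -0.15, and in siYT_DMSO against siC_DMSO it was 6.36.

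SPRR1B, a small proline-rich envelope precursor, measured 14, 13.2 and 6.8 CPM with XMU-MP1 and 2647, 1506 and 2276 CPM in siYT_DMSO (log2 fold change 7.56, SE 0.40, adjusted p = 2.02e-06). IVL, involucrin, the early scaffold of the envelope, stood at 5.6, 5.22 and 2.75 against 198, 209.6 and 396 CPM (log2 fold change 5.89, SE 0.42, adjusted p = 7.93e-06), and TGM1, the transglutaminase that cross-links it, at 0.668, 1.19 and 0.663 against 179.5, 68.3 and 142 CPM (7.27, adjusted p = 0.000419). In each of these genes every siYT_DMSO library lay above every other library. CDSN, corneodesmosin, which holds cornified cells together, was 197-fold higher (7.62, adjusted p = 2.02e-06), and KRTDAP and SBSN, secreted proteins of the upper epidermis, were 567-fold and 493-fold higher. The kallikreins KLK5 and KLK7, proteases of skin shedding, stood at 1393 ± 513 and 915 ± 186 CPM in siYT_DMSO against 29.2 ± 15.4 and 13.9 ± 7.17 CPM in siC_XMU, and SPINK5, which encodes their inhibitor, at 0.0862, 0 and 0.0663 against 11.9, 14.8 and 11.3 CPM. So proteases and inhibitor were high in the same libraries. The keratins differed in size: KRT80 was 35.4-fold higher and KRT10, the keratin of the spinous layer, 7.63-fold (18.7, 14.3 and 14.1 against 167, 157 and 35.7 CPM), while KRT13 did not pass (0.72, 95% interval -0.68 to 2.11). SPRR2A, SPRR2D and SPRR2E spread widely within siYT_DMSO, at 109, 4.08 and 15.5, at 678, 48.4 and 135 and at 382, 18.3 and 113 CPM, with library a the highest and b the lowest in each, and for SPRR2A library b lay within the siC_XMU libraries (4.55, 1.89 and 2.01 CPM). The call of SPRR2A was lost with voom and without siC_XMU b or c or siYT_DMSO a. FLG, filaggrin, the granular layer protein, was low in both groups (0.431, 0 and 0.448 and 1.25, 0.707 and 0 CPM) and did not pass, nor did SPRR3 and ECM1 (3.25 and 0.23), and LORICRIN had 0 counts in all 9 libraries.

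The alarmins of this list were among the genes of highest FPKM. S100A7, psoriasin, measured 22.8, 17 and 10.3 CPM with XMU-MP1 and 6288, 4071 and 6080.0 CPM in siYT_DMSO (log2 fold change 8.36, SE 0.41, adjusted p = 1.67e-06). S100A8 and S100A9, the subunits of calprotectin, stood at 3227 ± 1023 and 7715 ± 1971 CPM in siYT_DMSO against 22.8 ± 9.69 and 128 ± 41.5 CPM in siC_XMU. Leukocytes also make S100A8 and S100A9. Of 10 leukocyte markers 4 were tested and 3 of them were higher, CD14, CD68 and ITGAM, with a summed level of 22.2 to 32.7 CPM in siC_XMU, 49.3 to 68.3 CPM in siC_DMSO and 94.4 to 166 CPM in siYT_DMSO. TYROBP had 0 counts in every library, and PTPRC, LYZ and SPI1 were at most 0.0831, 0.172 and 0.0663 CPM. CD14 was highest in siC_DMSO (40.4, 57.6 and 43.2 CPM, against 25.9, 29.1 and 44.3 CPM in siYT_DMSO), and the call of ITGAM was lost without siC_XMU c or siYT_DMSO b. The part of these markers in the result was not tested. The shares of ribosomal RNA given above, and of SLCO5A1 (0.259 to 1.22% of counts in siC_XMU and 0.233 to 5.72% in siYT_DMSO), overlapped between the groups. Letter by letter, ribosomal RNA took 2.52, 1.21 and 1.02% in siC_XMU against 8.35, 3.64 and 1.86% in siYT_DMSO. Its mitochondrial part took 1.97, 1.06 and 0.916% against 6.10, 3.09 and 1.75%. Both were thus higher in siYT_DMSO at each letter, and SLCO5A1 at a and b but not at c. Beyond the fit without ribosomal RNA given above, the part of these shares was not tested. Without siYT_DMSO a, the library with the largest shares of ribosomal RNA and SLCO5A1, 3854 genes were higher and 3679 lower.

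Many of these genes sit together on chromosome 1 in the epidermal differentiation complex. In the interval from S100A10 to S100A1 (151982915 to 153632039), chosen after the values were seen, 31 of 43 genes tested were higher and 0 lower, with a median of 5.65 on the log2 scale, and 4.55 where genes at 0 in siC_XMU took their bound. Of the 43, 15 passed the filter only through siYT_DMSO, and 13 of these are among the 31. The S100A members had a median of 1.88 (10 of 15 higher), the SPRR members 7.56, or 5.91 with bounds (8 of 9 higher), and the LCE members 4.88 (4 of 6 higher), where 4 SPRR and 4 LCE members passed the filter only through siYT_DMSO and 3 of each are among those called. PGLYRP3 and PGLYRP4, secreted peptidoglycan-binding proteins encoded in this interval, had 0 counts in all siC_XMU libraries and stood at 96.3, 81.5 and 71.8 and at 38.5, 35.6 and 33.6 CPM in siYT_DMSO. Against the floor of 3 counts per library that is at least 1453-fold and at least 627-fold higher. PRR9, a proline-rich gene of the interval, spread widely in siYT_DMSO, at 8.51, 21.4 and 77.1 CPM against 0 counts in siC_XMU (at least 623-fold).

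The promoters of IVL and SPRR1B are shown because both carry the AP-1 letters TGANTCA, the site of FOS and JUN dimers, before their starts. They are given as above (200 bases to 1 base before the start, RefSeq, GRCh38.p14, plus strand), with those letters in capitals: IVL at chr1:152908346-152908545 with a match at -123, and SPRR1B at chr1:153031003-153031202 with matches at -141 and -111. The SPRR1B stretch also holds the TEAD letters GGAATG, which are left in lower case.
IVL: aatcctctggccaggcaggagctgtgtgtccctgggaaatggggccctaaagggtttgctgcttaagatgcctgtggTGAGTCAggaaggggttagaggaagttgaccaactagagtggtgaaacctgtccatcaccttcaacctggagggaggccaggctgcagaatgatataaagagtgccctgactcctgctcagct
SPRR1B: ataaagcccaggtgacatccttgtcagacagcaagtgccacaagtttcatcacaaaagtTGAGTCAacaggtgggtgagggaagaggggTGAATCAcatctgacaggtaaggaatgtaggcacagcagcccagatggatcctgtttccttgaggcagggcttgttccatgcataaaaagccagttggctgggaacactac

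Transcription factors of epidermal differentiation were mostly higher in siYT_DMSO: of 21 tested 19 were higher, 1 of which passed the filter only through siYT_DMSO, and 1 lower (median 3.19). GRHL3, a Grainyhead factor of barrier formation, measured 2.46, 1.34 and 1.28 CPM in siC_XMU, 30.6, 24.7 and 15.1 CPM in siC_DMSO and 224, 228 and 352 CPM in siYT_DMSO. The 3 groups did not overlap, with the XMU-MP1 libraries lowest (log2 fold change 7.32, SE 0.42, adjusted p = 2.88e-06; 3.51 for siYT_DMSO and -3.80 for siC_XMU against siC_DMSO). Its relative GRHL1 stood at 26.1, 27 and 23.1 against 227, 207 and 235 CPM (3.13, adjusted p = 1.08e-05), with siC_DMSO lowest at 17.9, 14.7 and 8.85 CPM. ZNF750, a p63-dependent regulator of late differentiation, was 51.9-fold higher (5.70, adjusted p = 0.000131), OVOL1 33.3-fold (5.06, adjusted p = 6.51e-05) and PRDM1 22.7-fold (4.51, adjusted p = 9.05e-06). KLF4, a factor of the suprabasal layers, stood at 16, 15.9 and 14.9 against 93.7, 87.5 and 81.5 CPM (2.49, adjusted p = 6.31e-05), and CEBPB at 86.6, 73.3 and 72.1 against 445, 329 and 411 CPM (2.35, adjusted p = 6.29e-06). EHF and ELF3, epithelial ETS factors, were lowest in siC_XMU, at 46.5 ± 14.2 and 53.9 ± 22.2 CPM, against 165 ± 30.2 and 195 ± 52.3 CPM in siC_DMSO and 444 ± 23.7 and 219.7 ± 52.6 CPM in siYT_DMSO. CEBPA was uneven in siYT_DMSO (36.5, 182 and 204 CPM against 13.6, 16.2 and 11.5 CPM). OVOL2 was the lower member (-1.54, adjusted p = 0.00563), and BNC1, a factor of basal keratinocytes, did not pass (0.59, 95% interval -0.047 to 1.23).

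The lipid side of the barrier moved in the same direction. Of 21 genes tested 18 were higher and 0 lower (median 5.38, or 4.99 with bounds, and 2.37 from FPKM with a pseudocount of 1), 7 of them having passed the filter only through siYT_DMSO. CERS3, the ceramide synthase for the very long chains of skin, had 0 counts in siC_XMU and siC_DMSO and stood at 29.8, 34.8 and 68.6 CPM in siYT_DMSO, at least 775-fold higher. CYP4F22, the hydroxylase that acts on those chains, was at least 365-fold higher. ABCA12, the lipid transporter of lamellar granules, stood at 12.2, 12.8 and 5.98 against 551, 559 and 492 CPM (log2 fold change 5.70, SE 0.37, adjusted p = 4.96e-06), and SULT2B1, the cholesterol sulfotransferase, at 1.9, 1.03 and 1.01 against 535, 311 and 438 CPM (8.36, adjusted p = 2.18e-06). The lipoxygenase ALOXE3 was 15.4-fold higher, and ALOX12B had 0 counts in siC_XMU against 5.95, 8.94 and 10.9 CPM. Members with broader roles differed less: SPTLC2, a subunit of serine palmitoyltransferase, by 0.88 and ELOVL4, a fatty acid elongase, by 1.24 on the log2 scale. The remaining 3 members did not pass, among them UGCG, glucosylceramide synthase (1.08, adjusted p = 0.0535), which passed in 8 of 23 other settings.

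TP63 (gene ID 8626 on the plus strand of chromosome 3, bases 189596746 to 189897279) measured 3.25, 4.57 and 2.42 CPM with XMU-MP1 and 26.7, 11.6 and 21 CPM in siYT_DMSO, with 31.4, 31.5 and 24.5 CPM in siC_DMSO. It was low in the XMU-MP1 libraries, while the knockdown libraries lay near the reference with library b lower (log2 fold change 2.53, SE 0.34, adjusted p = 0.0003). Against siC_DMSO the log2 fold change was -3.09 in siC_XMU (adjusted p = 0.000965) and -0.56 in siYT_DMSO (adjusted p = 0.193). FAT2, a protocadherin and known p63 target, was also lowest in siC_XMU, at 20.6, 18.8 and 17.5 CPM in siC_XMU, 137, 77.2 and 80.2 CPM in siYT_DMSO and 105, 96 and 105 CPM in siC_DMSO (2.37, adjusted p = 3.15e-05). Of 29 genes tested in the list of TP63 and basal epithelium 13 were higher and 4 lower, with a median of 0.43. The keratins split: KRT5, the basal keratin, was lower (4860.1, 5388 and 3913 against 2559, 1107 and 1368 CPM; -1.49, adjusted p = 0.00241), and its partner KRT14 overlapped between the groups (-1.26, 95% interval -2.61 to 0.089). KRT16 and KRT17, keratins of stressed and healing skin, were higher, at 31.8, 24.9 and 12.3 against 2469, 696 and 1353 CPM (6.03, adjusted p = 5.95e-05) and at 915, 884 and 492 against 10354, 3493 and 4802 CPM (3.03, adjusted p = 0.000359). Library a of siYT_DMSO was the highest for both. Desmosome genes DSP and DSG3 were higher (1.80 and 2.32), as were SFN, the 14-3-3 sigma protein (1.94), and TRIM29 (2.89). The hemidesmosome genes ITGA6, ITGB4 and COL17A1 did not pass, with 95% intervals of -0.44 to 0.69, -0.34 to 0.91 and -0.62 to 0.33.

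Genes of cell division were low in siYT_DMSO. Of 30 genes of G2/M and mitosis 29 were lower and 0 higher (median -4.52), and of 33 genes of G1/S and DNA replication 32 were lower and 0 higher (median -3.17). Against siC_DMSO the medians were -4.39 and -3.71 in siYT_DMSO and 0.18 and 0.013 in siC_XMU. In siC_XMU against siC_DMSO 2 of the 30 were higher and 1 lower, and 4 of the 33 higher and 5 lower. Over all genes tested 8.28% were higher and 11.5% lower there, so most members were not called for XMU-MP1. CDK1, the mitotic kinase, measured 257, 207 and 241 CPM in siC_XMU, 115, 125 and 113 CPM in siC_DMSO and 6.14, 4.49 and 3.02 CPM in siYT_DMSO (log2 fold change -5.71, SE 0.26, adjusted p = 1.16e-06). PCNA, the sliding clamp of replication, showed the same order at 340.4, 324 and 273, then 181, 176 and 168 and then 15.8, 15.8 and 16 CPM (log2 fold change -4.30, SE 0.12, adjusted p = 1.81e-07). In both genes the XMU-MP1 libraries lay above the reference and the knockdown libraries below it. RRM2, a subunit of ribonucleotide reductase, was 60.5-fold lower (1149.8 ± 86.1 against 19.2 ± 15.1 CPM). CCNE2 (cyclin E2) stood at 38.5, 35.7 and 36.5 against 0, 0.208 and 0.547 CPM (-6.98, adjusted p = 3.55e-05). PLK1, the polo kinase, stood at 282, 309.7 and 324 against 22.8, 6.51 and 9.78 CPM (-4.57, adjusted p = 3.28e-05), with library a the highest of siYT_DMSO, and MKI67, the Ki-67 antigen, at 655, 737 and 779 against 66, 16.4 and 13.1 CPM (-4.52, adjusted p = 0.000233). MCM3, a subunit of the replicative helicase, did not follow CDK1, since siC_DMSO was its highest group (279.7, 257 and 254 CPM against 117, 97.6 and 106 CPM in siC_XMU and 25.6, 13.8 and 19.3 CPM in siYT_DMSO). CDC25B and GINS3 did not pass (-0.089 and -0.45).

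The promoters of PCNA and PLK1 are shown because each holds the letters of a cell cycle element. PCNA covers chr20:5126623-5126822 (minus strand), with the E2F letters TTTNCCGC in capitals on the opposite strand, beginning at -59. PLK1 covers chr16:23678689-23678888 (plus strand), with the letters TTTGAA of the cell cycle homology region in capitals at -29. Both run from 200 bases to 1 base before the start (RefSeq, GRCh38.p14).
PCNA: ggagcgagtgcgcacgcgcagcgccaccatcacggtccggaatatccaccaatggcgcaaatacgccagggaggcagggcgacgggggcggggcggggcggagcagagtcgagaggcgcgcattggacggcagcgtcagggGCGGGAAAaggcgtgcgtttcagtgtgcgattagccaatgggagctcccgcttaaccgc
PLK1: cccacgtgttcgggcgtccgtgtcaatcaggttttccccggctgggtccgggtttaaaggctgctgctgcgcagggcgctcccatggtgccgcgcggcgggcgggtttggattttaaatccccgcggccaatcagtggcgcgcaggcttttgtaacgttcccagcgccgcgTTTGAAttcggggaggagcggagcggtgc

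Cyclins, inhibitors and the MYC network were mixed: 8 of 22 tested were higher and 7 lower, and the lower members were 4 with 12 libraries, without siC_XMU a or without siYT_DMSO b. CDKN1A, which encodes the inhibitor p21, was higher (1328, 1125 and 630.3 against 1606, 2072 and 1702 CPM; 0.80, adjusted p = 0.029), and both groups lay above siC_DMSO (303, 357 and 428 CPM). CDKN2C, the inhibitor p18, was lower (30.4, 34.9 and 38.8 against 3.53, 3.74 and 3.33 CPM; -3.29, adjusted p = 1.43e-06). MYC measured 61.4, 77.4 and 81.6 CPM with XMU-MP1 and 145, 102 and 116 CPM in siYT_DMSO (0.72, adjusted p = 0.00529), both below the 356, 304 and 293 CPM of siC_DMSO. CCND1, cyclin D1, showed the same order, at 59.2, 40.8 and 57.2, then 106, 67.9 and 132 and then 195, 199 and 253 CPM. MNT and MXD1, which oppose MYC, were higher in siYT_DMSO (2.44 and 1.21). The call of CDKN1A was lost among the 6 libraries alone and without siC_DMSO b, siC_XMU b or c, or siYT_DMSO b or c.

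Letters of known elements were counted in the promoters of 12031 tested genes that matched RefSeq (250 bases before to 50 after the first start listed for each gene, both strands). The AP-1 letters TGANTCA lay in 5.32% of all of them, in 12.5% of the 1058 promoters of genes at least 4-fold higher and in 2.57% of the 700 of genes at least 4-fold lower. The E2F letters TTTNGCGC or TTTNCCGC lay in 7.64%, 3.31% and 13.7%, the letters TTTGAA in 10.1%, 11.0% and 20.4%, and CCAAT, the NF-Y box, in 36.3%, 28.8% and 49.0%. The TEAD letters GGAATG lay in 11.1%, 13.6% and 14.1%. Over all higher and all lower genes (3101 and 2989 promoters) the shares lay nearer to each other, at 7% and 3.68% (AP-1), 4.90% and 10.8% (E2F), 8.90% and 12.5% (TTTGAA), 31.6% and 43.3% (CCAAT) and 10.9% and 11.1% (TEAD). So the TEAD letters were at similar shares on either side, while AP-1 letters were more frequent among the higher genes and E2F letters among the lower ones, as descriptions with no test. Over the whole table of 27305 promoters the shares were 7.76% (AP-1), 4.99% (E2F), 15.4% (TTTGAA), 35.7% (CCAAT) and 14% (TEAD). The higher genes include those that passed the filter only through siYT_DMSO, 446 of the 4040 called. Their promoters were not counted apart, so the shares among higher genes rest partly on them. The counts take no account of base composition, and matches of different motifs can overlap. A match says only that the letters are there.

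Histone genes changed unequally. Of 18 tested 7 were higher and 3 lower (median 0.087), although against siC_DMSO the medians were 2.12 in siYT_DMSO and 2.26 in siC_XMU. H2BC4 was highest in siYT_DMSO, at 118, 222 and 177 CPM, with 21.8, 25.9 and 23.1 CPM in siC_XMU and 4.07, 3.57 and 3.28 CPM in siC_DMSO (log2 fold change 2.87, SE 0.22, adjusted p = 1.27e-05). H2BC12 had the opposite order of the treated groups, with siC_XMU at 349, 396 and 281 CPM, siYT_DMSO at 122, 230.1 and 191 CPM and siC_DMSO at 30.8, 38 and 35.8 CPM (-0.92, adjusted p = 0.00834). Both treated groups lay above the reference for both genes. H2BC21 and H2BC8 were higher in siYT_DMSO (2.88 and 2.92), and H4C14 lower (-2.55). Histone genes have near-identical copies, and how the counting split them is not given in the sources used here. The libraries were made from poly(A) RNA, so histone transcripts without a poly(A) tail are not measured by these levels. Their part in the differences was not tested.

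The genes that build ribosomes were lower in siYT_DMSO: 19 of 28 tested were lower and 1 higher (median -0.61). Both treatments lay below siC_DMSO, with medians of -1.51 in siYT_DMSO and -0.61 in siC_XMU. NOP58 and NOP56, core proteins of box C/D particles, stood at 113 ± 20.1 against 18.4 ± 3.58 CPM and at 195 ± 15.9 against 32.5 ± 10.2 CPM. NPM1, nucleophosmin, stood at 4332, 3649 and 3684 against 1059, 921 and 1019 CPM (-1.96, adjusted p = 4.26e-06), with every siYT_DMSO library below every other. Among 77 cytosolic ribosomal protein genes, grouped after the values were seen, 28 were lower and 0 higher, with a median of only -0.24. RPLP0 stood at 4008, 4082 and 3382 against 1593, 1499.8 and 1468 CPM (-1.33, adjusted p = 2.05e-05) and RPL3 at 3589, 3529 and 2854 against 1822, 1483 and 1456 CPM (-1.07, adjusted p = 0.000207).

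The ligands and receptors of the epidermal growth factor family were higher: 6 of 10 tested were higher and 1 lower (median 1.32). HBEGF, a membrane-bound ligand, measured 79.4, 58.2 and 61.9 CPM in siC_XMU, 135, 67.7 and 54.4 CPM in siC_DMSO and 1124, 799 and 1429.5 CPM in siYT_DMSO (log2 fold change 4.07, SE 0.38, adjusted p = 3.4e-05). ERBB3, the receptor without kinase activity of its own, stood at 33.9, 32.5 and 25.8 against 337, 432 and 333 CPM (3.58, adjusted p = 1.78e-06), and siC_DMSO was at the level of siC_XMU (33.7, 32.3 and 24.6 CPM). EGFR itself was lowest in siC_XMU (64, 97.8 and 97.7 CPM) and overlapping in the other groups (285, 191 and 208 and 217, 205 and 213 CPM). NRG1, the ligand of ERBB3, was the lower member (7.65, 10.3 and 5.95 against 0.651, 0.0832 and 1.11 CPM; -3.68, adjusted p = 0.00202). Feedback genes downstream of ERK had 10 of 20 higher and 2 lower: the phosphatases DUSP6 and DUSP7 were 4.6-fold and 3.84-fold higher, while ETV5, an ETS factor of the same pathway, was 14.4-fold lower (119.8, 132 and 115 against 7.99, 6.61 and 10.9 CPM; -3.85, adjusted p = 3.29e-06).

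Of 24 AP-1 and immediate early genes 13 were higher, 1 of which passed the filter only through siYT_DMSO, and 4 lower (median 0.95). JUNB measured 90.4, 92.2 and 71 CPM with XMU-MP1 and 464, 402 and 499 CPM in siYT_DMSO (log2 fold change 2.43, SE 0.16, adjusted p = 5.45e-06), FOS stood at 14.4, 10.3 and 6.1 against 91.7, 40.2 and 79.5 CPM (2.78, adjusted p = 0.000432) and EGR3 at 0.733, 0.44 and 0.133 against 76, 41.1 and 46.5 CPM (6.99, adjusted p = 6e-05). For all 3 genes the groups did not overlap. FOSL1, the FOS relative known as a target of YAP with AP-1, was lowest in siC_XMU (30.4, 44.3 and 52.8 CPM), with siYT_DMSO at 97.4, 61.9 and 106 CPM and siC_DMSO highest at 151, 148 and 248 CPM. ATF3 and BTG2, both stress-induced regulators, were among the lower members (-3.56 and -2.12). JUND and FOSL2 had libraries far from their group in more than 1 group (132, 26.6 and 102 CPM for JUND in siC_XMU) and did not pass, although FOSL2 (1.45, adjusted p = 0.0594) passed in 6 of 23 other settings.

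Inflammatory genes under NF-kB were higher in siYT_DMSO relative to siC_XMU, with 12 of 28 higher and 3 lower (median 0.84). The filter was passed only through siYT_DMSO by 2 of the 28, and 1 of these is among the 12. Against siC_DMSO the medians were 0.082 in siYT_DMSO and -1.39 in siC_XMU, given side by side since they share those libraries. IL1A stood at 12.5, 12.4 and 16.7 CPM in siC_XMU, 189, 106 and 251 CPM in siYT_DMSO and 154, 102 and 102 CPM in siC_DMSO (log2 fold change 3.71, SE 0.33, adjusted p = 2.75e-05). Only the XMU-MP1 libraries were low. IL1B stood at 2.56, 3.31 and 3.2 against 88.1, 19.2 and 131 CPM (4.72, adjusted p = 0.000262), with library b the lowest of siYT_DMSO. IL1RN, the receptor antagonist of interleukin 1, was highest in siYT_DMSO (1.27, 1.13 and 0.199 CPM in siC_XMU, 4.42, 2.16 and 1.19 CPM in siC_DMSO and 221, 79.7 and 148 CPM in siYT_DMSO). IL36G, an epidermal cytokine of the same family, had 0 counts in siC_XMU against 20.7, 2.7 and 17.2 CPM, at least 236-fold. NFKBIA, the feedback inhibitor of the pathway, was 2.94-fold higher (1.55, adjusted p = 9.57e-05). IL6 went the other way, at 0.496, 1.01 and 2.17 CPM in siC_XMU and 0, 0.0832 and 0 CPM in siYT_DMSO. Of 24 interferon genes 4 were higher and 1 lower (3 lower on FPKM with a pseudocount of 0.1, and 2 with a pseudocount of 1, with total counts only or without siYT_DMSO a or c).

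Genes of the ATF4 response and of protein folding were lower in siYT_DMSO: 16 of 27 tested were lower and 3 higher (median -1.03). ATF4 itself, which switches on amino acid synthesis under stress, measured 1882, 1649 and 1234 CPM in siC_XMU, 922, 646 and 372 CPM in siC_DMSO and 300.1, 347 and 279 CPM in siYT_DMSO (log2 fold change -2.36, SE 0.31, adjusted p = 0.000237). ASNS, asparagine synthetase, measured 768, 673 and 490.0 CPM in siC_XMU, 172, 85.1 and 41.3 CPM in siC_DMSO and 14.6, 13.3 and 11.1 CPM in siYT_DMSO, a 49.6-fold difference (log2 fold change -5.63, SE 0.51, adjusted p = 3.04e-05). The treated groups lay on either side of the reference, and library a was the highest in each group. CHAC1, a glutathione-degrading enzyme, spread widely within siC_XMU (273, 82.1 and 19.4 against 2.28, 1.31 and 1.85 CPM; -6.13, adjusted p = 0.00597), as did SLC7A11, the cystine transporter (108, 55.3 and 53.7 against 3.49, 1.46 and 1.55 CPM; -5.11, adjusted p = 0.000692). PHGDH, PSAT1 and MTHFD2, enzymes of serine synthesis and mitochondrial folate, were lower by 8.66-fold, 9.89-fold and 8.95-fold. Among the chaperones of the endoplasmic reticulum HSPA5 was at 1217, 1371 and 1258 against 548, 498 and 528 CPM (-1.29, adjusted p = 1.01e-05), with siC_DMSO nearer to siYT_DMSO (677, 694 and 651 CPM). TRIB3, a pseudokinase induced by ATF4, and CEBPB were higher (1.68 and 2.35) against the direction of the list.

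Cytosolic and mitochondrial chaperones were lower too, 11 of 17 with 1 higher (median -1.20). HSP90AB1 stood at 3089, 3021 and 3163 against 1142, 1104 and 1222 CPM (-1.42, adjusted p = 7.44e-06) and HSPD1, the mitochondrial chaperonin, at 957, 1033 and 951 against 286, 291 and 277 CPM (-1.78, adjusted p = 1.78e-06), in both with siC_DMSO near siC_XMU. HSP90AA1, by contrast, had siC_DMSO near siYT_DMSO (2586, 3314 and 3473 CPM in siC_XMU, 1333, 1418 and 1582 CPM in siC_DMSO and 1036, 1366 and 1492 CPM in siYT_DMSO). HSPB1, the small heat shock protein abundant in differentiating epidermis, was the higher member (452, 384 and 264 against 2732, 2226 and 1661 CPM; 2.59, adjusted p = 3.29e-05).

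Targets of p53 were lower in 11 of 25 and higher in 5, and the higher members were 1 to 3 without siC_DMSO b, siC_XMU b or c, or siYT_DMSO b or c, and 2 with 12 libraries. CCNG1, cyclin G1, stood at 387, 364 and 337 against 21.1, 22.8 and 21.6 CPM (log2 fold change -4.05, SE 0.13, adjusted p = 3.42e-07), with siC_DMSO at 304, 313 and 246 CPM. MDM2, the ligase of p53, stood at 830.0, 417 and 238 against 131, 102 and 106 CPM (-2.13, adjusted p = 0.00168), and library a was its highest in siC_XMU. PHLDA3, an inhibitor of AKT, was higher (1.65), as was CDKN1A above.

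Of 33 matrix and adhesion genes 10 were higher, 2 of which passed the filter only through siYT_DMSO, and 9 lower. Among the lower ones were collagens and laminins: COL4A1 stood at 100.3, 85.9 and 113 against 4.55, 3.12 and 6.55 CPM (-4.39, adjusted p = 1.49e-05), COL12A1 at 101, 111 and 101 against 4.32, 0.894 and 2.28 CPM (-5.44, adjusted p = 2.66e-05), and the laminin chains LAMA5, LAMB1 and LAMC1 at -0.89, -1.30 and -0.98. Among the higher ones were a protease inhibitor and proteases: PLAU, urokinase, stood at 24.3, 35.7 and 66.3 against 319.8, 191 and 411 CPM (2.87, adjusted p = 0.00045), TIMP1 at 146, 151 and 157 against 555, 379 and 1136 CPM (2.19, adjusted p = 0.000891), and MMP1 had 0 counts in siC_XMU against 21.1, 3.58 and 20.2 CPM (at least 261-fold). For PLAU the low group was siC_XMU, since siC_DMSO stood at 309, 441 and 519 CPM. CD44, a hyaluronan receptor, and ITGA5, a fibronectin receptor chain, were 2.92-fold and 4.19-fold higher.

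Of 17 genes of the mesenchymal transition 6 were higher and 6 lower. VIM, vimentin, stood at 467, 752 and 1436 against 56.3, 32 and 154 CPM (-3.45, adjusted p = 0.00328) and CDH2, N-cadherin, at 12, 19.7 and 22.3 against 1.63, 0.811 and 4.04 CPM (-3.04, adjusted p = 0.00273). CDH1, E-cadherin, stood at 235, 223 and 138 against 695, 577 and 666 CPM (1.70, adjusted p = 0.000565), and ESRP1 and ESRP2, epithelial splicing factors, were 5.08-fold and 6.33-fold higher. EPCAM, an epithelial adhesion protein, and SNAI1, a repressor of E-cadherin, did not follow those: EPCAM was lower (-0.97) and SNAI1 higher (4.42, 3.65 and 4.11 against 19.9, 16.1 and 30.5 CPM; 2.45, adjusted p = 0.000216). In a list of 8 general epithelial markers, which holds CDH1, ESRP1 and EPCAM, 5 were higher and 3 lower (median 1.37, range -2.36 to 3.25). Their summed level overlapped between the groups, at 5093 to 6669 CPM in siC_XMU and 5605 to 6435 CPM in siYT_DMSO. Of 23 genes of the TGF-beta and BMP response 8 were lower and 2 higher (5 lower without siC_XMU b): TGFBR2, a receptor, was lower (-2.26, adjusted p = 1.26e-05) and SMAD3, a signal transducer, higher (1.60, adjusted p = 0.000264). Of 23 cytoskeletal genes under SRF 8 were lower and 4 higher (2 higher without siC_XMU b), with TAGLN, transgelin, at 26.6, 16.6 and 12.7 against 1.95, 0.936 and 1.8 CPM (-3.59, adjusted p = 6.67e-05) and FLNA, filamin A, at -1.74.

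In the Notch pathway 5 of 16 genes were higher and 5 lower. NOTCH3 measured 0.56, 1.2 and 0.945 CPM in siC_XMU, 1.61, 0.67 and 1.11 CPM in siC_DMSO and 153, 137 and 158 CPM in siYT_DMSO (log2 fold change 7.36, SE 0.40, adjusted p = 2.02e-06), a 164-fold difference, with siC_DMSO overlapping siC_XMU. NOTCH1 was lower (-1.86, adjusted p = 0.00051), and so were the ligands JAG2 and DLL4 (-2.36 and -5.96), while the target HES1 was 4.04-fold higher.

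Of 25 genes of cholesterol and fatty acid synthesis 12 were higher and 2 lower (6 and 1 with 12 libraries), led by HMGCS1 (96.3, 53.7 and 51.7 against 323, 288 and 215 CPM; 2.04, adjusted p = 0.000216) and MSMO1 (1.88, adjusted p = 6.56e-05), with siC_DMSO between them (164, 142 and 127 CPM for HMGCS1). Of 21 NRF2 targets 10 were higher and 5 lower: the aldo-keto reductases AKR1C1, AKR1C2 and AKR1C3 were higher (3.78, 3.58 and 2.58), but they have near-identical copies, and NQO1, the reductase most used as a readout of NRF2, did not pass (-0.20, 95% interval -0.51 to 0.12). Of 28 lysosome and autophagy genes 14 were higher and 5 lower: CTSD, cathepsin D, stood at 607, 801 and 462 against 3617, 4119 and 2817 CPM (2.50, adjusted p = 3.27e-05), CTSV, an epidermal cathepsin, was 11.1-fold higher, and TFEB, the factor that drives lysosomal genes, stood at 1.66, 1.22 and 1.54 against 23.5, 18.4 and 18.8 CPM (3.78, adjusted p = 3.46e-06). Hypoxia and glycolysis genes had 6 higher and 6 lower of 27 (3 higher without siC_XMU c or siYT_DMSO c), among them NDRG1, a stress-induced gene, at 108, 139.7 and 142 against 1587, 734 and 1269.5 CPM (3.20, adjusted p = 0.000114) and GAPDH at 11354, 12092 and 10344 against 4668, 3103 and 3777 CPM (-1.55, adjusted p = 6.54e-05).

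**Figure D3:**
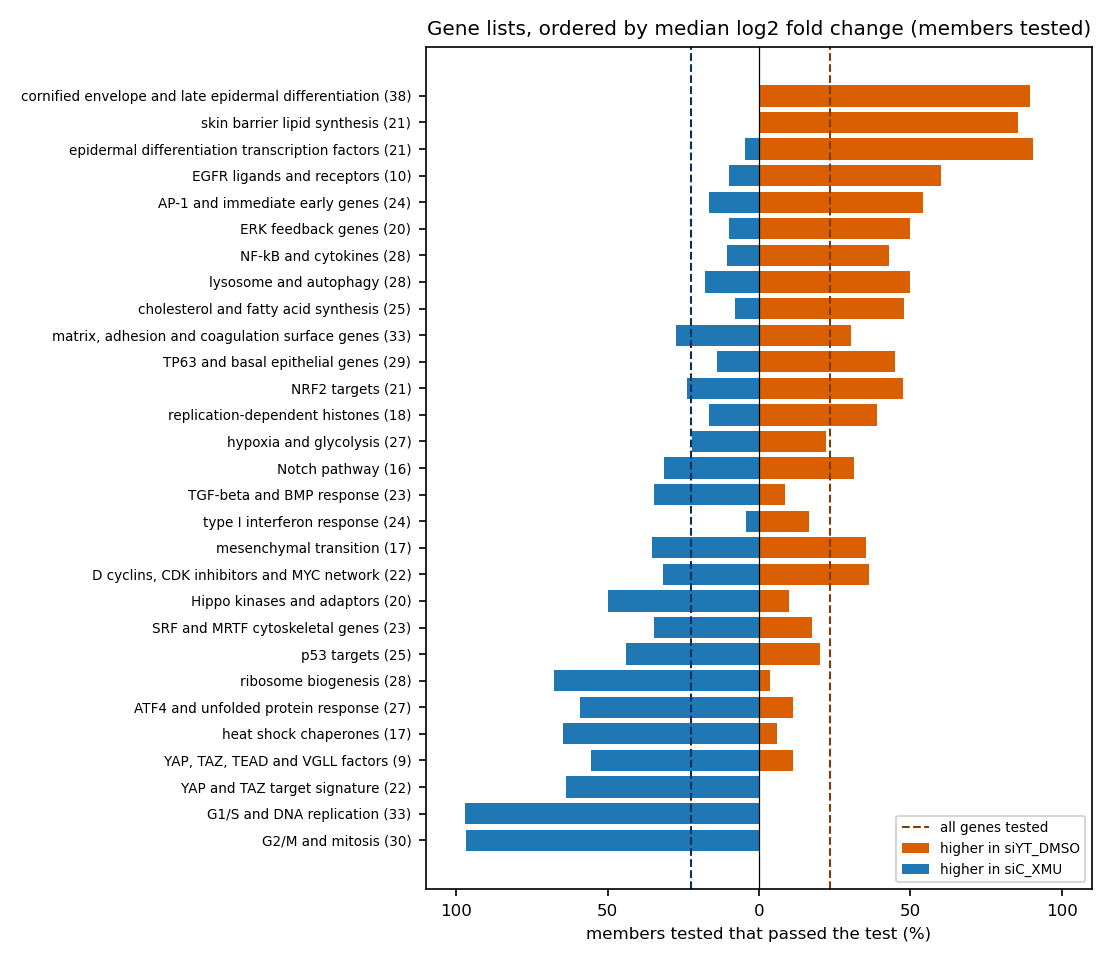
Bars give, for each gene list, the percentage of its tested members higher in siYT_DMSO (right) or higher in siC_XMU (left) by edgeR at an adjusted p under 0.05, with the number tested in parentheses and dashed lines at 23.5% and 22.6%, the shares of all genes tested. The epidermal and barrier lists reach furthest right and the cell cycle lists furthest left.

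Among the largest differences several need care. DUSP14 and DUSP16, dual-specificity phosphatases, each had 0 counts in all libraries of a group: DUSP16 stood at 0 in siC_XMU and 49.2, 34.2 and 38.4 CPM in siYT_DMSO (at least 709-fold), and DUSP14 at 52.4, 48.8 and 43.6 CPM in siC_XMU and 0 in siYT_DMSO (at least 569-fold lower). Both also had 0 counts in siC_DMSO b beside 10.5, 0 and 8.91 and 39.9, 0 and 32.5 CPM over its libraries a, b and c, and both calls were lost with voom. DUSP16 passed the filter on low counts only through siYT_DMSO, so a difference was built into its entry. CHCHD10, a mitochondrial protein, had 0 counts in siYT_DMSO against 16.2, 12.3 and 10.4 CPM (at least 153-fold lower). The sources used here do not give the rule by which a read was credited to a gene, so a 0 here may still hide transcript. CZ1P-ASNS, a readthrough transcript overlapping ASNS, stood at 129, 5.89 and 1.91 CPM in siC_XMU and 0 in siYT_DMSO, nearly all of it in library a. BLM, the helicase of Bloom syndrome, stood at 39.9, 34.2 and 45.3 against 1.35, 0.27 and 0.194 CPM (-6.25, adjusted p = 6.38e-05). LINC00052, SFTA1P and FAM72C had 0 counts in at least 1 library of siYT_DMSO and 22.5 ± 14.8, 9.49 ± 0.959 and 20.1 ± 5.15 CPM in siC_XMU, and FAM72C has near-identical copies. TRIM63, a muscle ubiquitin ligase, and WFDC5, a protease inhibitor of skin, were at 0 in siC_XMU and uneven in siYT_DMSO (1.72, 3.83 and 32.2 and 11.6, 1.41 and 17.4 CPM), and their calls were lost with voom.

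By FPKM, which corrects for transcript length, the most abundant genes that differed at least 2-fold were S100A9, S100A7, S100A8, PI3 and S100A6 and the mitochondrial ribosomal RNA RNR2 among the higher, and GAPDH, RPS2, TUBB4B, RPLP0, RPL3 and MT2A among the lower. PI3, elafin, an epidermal elastase inhibitor, stood at 26.7, 16.3 and 8.74 against 3372, 947 and 3724 CPM (7.28, adjusted p = 5.09e-05). TUBB4B, a beta tubulin, measured 4341, 5428 and 4845 CPM in siC_XMU, 928, 1276 and 1479.8 CPM in siC_DMSO and 1052, 898 and 792 CPM in siYT_DMSO (log2 fold change -2.41, SE 0.20, adjusted p = 1.66e-05), so here the XMU-MP1 libraries were the ones apart. RNR2 stood at 14608, 7988 and 6846 against 50195, 23347 and 15159.5 CPM, and its call was lost with 12 libraries and without siC_XMU b or c or siYT_DMSO a.

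Some genes lay on opposite sides of siC_DMSO in the 2 treated groups and others on the same side. The rule took genes called in both comparisons with siC_DMSO; since both share those libraries, the values are a description. On opposite sides, high with the knockdown, lay DEPP1, a FOXO-induced gene (0.366, 1.26 and 0.514, then 3.44, 8.7 and 11.4 and 115, 54.8 and 117 CPM for siC_XMU, siC_DMSO and siYT_DMSO), RAB7B, a late endosome GTPase (0.323, 1.24 and 0.696, then 4.8, 10.6 and 7.95 and 43, 54.2 and 68.1 CPM), KRT78, GRHL3, PGLYRP4 and NFE2. High with XMU-MP1 and low with the knockdown lay PEG10, a gene of retroviral origin (938, 2006 and 1579.5, then 193, 256 and 233 and 71, 44.1 and 49.5 CPM), LMO2, a LIM-only cofactor (32.5, 27.4 and 29.9, then 1.27, 7.78 and 5.95 and 1.07, 1.25 and 1.68 CPM, library a of siC_DMSO lying within siYT_DMSO), CCN2, ASNS, LINC00052 and the pseudogene HMGN2P3.

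On the same side, with an interval of siYT_DMSO against siC_XMU inside 2-fold either way, SERTAD1, a regulator of E2F and CDK4, measured 80, 90.9 and 66.8 CPM with XMU-MP1 and 64.4, 88.6 and 73.1 CPM in siYT_DMSO against 10.3, 15.2 and 16.7 CPM in siC_DMSO (difference -0.071, 95% interval -0.53 to 0.39). NRARP, a feedback inhibitor of Notch, stood at 39.3, 48 and 27.5 and 46.3, 52.4 and 20.2 against 6.14, 7.82 and 6.79 CPM (0.051, -0.71 to 0.81). MIDN, which was still lower in siYT_DMSO than in siC_XMU (-0.57, adjusted p = 0.0337), FBXO33, KCTD21 and the linker histone H1-2 were also high in both. TRIM6, a ubiquitin ligase, was low in both, at 6.98, 8.13 and 10.8 and 5.62, 8.32 and 9.83 against 34.6, 33.9 and 29.4 CPM (-0.12, -0.67 to 0.42), and so was CXCL1, a chemokine, at 19.8, 25.8 and 30.8 and 31.7, 13.5 and 38 against 106, 141 and 115 CPM (0.12, -0.64 to 0.88). NTN4, ARHGAP45, PRR15 and LINC00857 lay likewise below the reference. For these genes the treated groups overlapped each other and lay wholly on the same side of siC_DMSO.

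**Figure D4:**
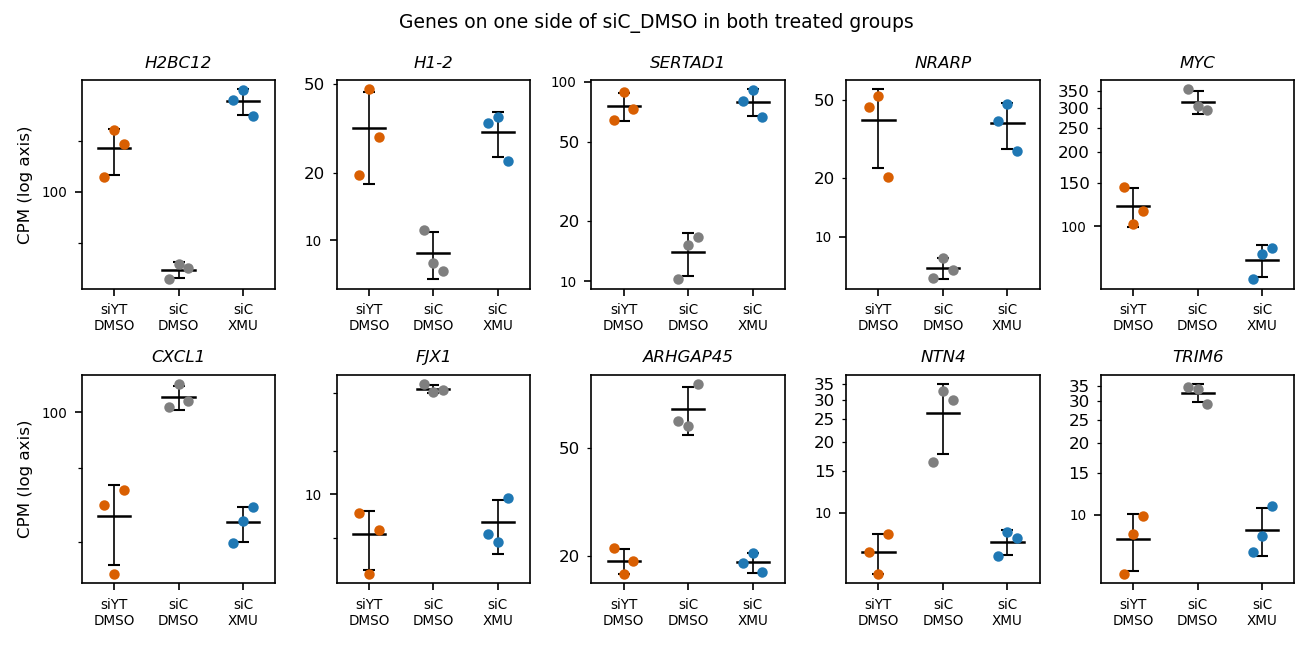
Level in each library (CPM, log axis) of 10 genes in siYT_DMSO, siC_DMSO and siC_XMU, with the mean ± SD of 3 libraries, 7 taken by the rule for genes on the same side and H2BC12, MYC and FJX1 added after their values were seen. In each panel the siC_DMSO libraries lie apart from both treated groups.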

How the data were processed

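RNA from MCF10A cells was sequenced as stranded poly(A) libraries with paired ends on an Illumina NovaSeq, per the labels' protocols. The deposited count values are whole numbers per gene and the deposited FPKM values are the authors' length-scaled levels. The submitters' processing notes name cutadapt, FastQC, HISAT2, StringTie, edgeR and GRCh38.p13, without versions or order; the counting rule is not given in the sources used here.

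Counts of 9 libraries (siC_DMSO, siC_XMU, siYT_DMSO) were fitted with edgeR 4.0.16 in R 4.3.3: filterByExpr (17168 of 46931 genes kept), trimmed mean of M values and the quasi-likelihood test with Benjamini-Hochberg adjustment. The group siYT_XMU was left out because its library c stood apart (35.0% ribosomal RNA). SE is the log2 fold change over the square root of F. FPKM was used only to rank abundance and in limma 3.58.1 alternatives; DESeq2 1.42.0 was another. On simulated counts for this comparison 24.2% of 95 genes changed 2-fold and 59.8% of 97 changed 4-fold were recovered, with 8 unchanged genes called. Far fewer genes were changed in the simulation than the 7926 called in the data, so these rates need not hold here. A count of 3 per library, 0.0419 to 0.139 CPM, was the floor, which covers counting error only.

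Named genes were the siRNA targets, the MST and LATS kinases, TP63, CCN1 and CCN2, the 10 largest changes per direction (mean FPKM of at least 5, no overlap), the 6 most abundant per direction, up to 4 called members per list with the smallest p, and up to 6 per direction on the same or opposite sides of siC_DMSO. Other genes named were chosen after their values were seen. The members and lists were chosen with earlier results of these data known. Promoters are RefSeq's (GRCh38.p14).

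Library letters occur in every group. Among the 5000 most abundant genes all 9 same-letter pairs correlated above 0.1 in their deviations (0.117 to 0.468), although over all genes only 2 of 9 did, so the letters were taken to pair the libraries. The pairing comes from these correlations and not from the labels. The main fit has no term for the letters. Printed fold changes, intervals and p-values are therefore unpaired unless the replicate block is named. One marker gene is not reported here.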

Additional observations from a re-analysis of the deposited data

How the results depend on the processing

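Over 23 alternatives (9 of them leaving out a library) 4040 higher and 3886 lower genes became 4094 and 4008 with the replicate block, which pairs the letters; no call that the block ended or count it moved by over 1.5 times was among the results printed, except members higher in ribosome biogenesis and fibroblast markers (each 1 to 2) and lower in luminal markers (1 to 2), and AMOTL1 gained a call. Without each library in turn the higher genes ranged from 3489 to 3887 and the lower from 3400 to 3784. Of the 7926 calls 76% (12 libraries) to 99.8% (ribosomal RNA left out) were kept, with 0 reversed. The share of calls that were higher was 51%, but 44.6% on FPKM and 45.4% with total counts only. Genes at least 2-fold higher numbered 2763, and 1476 with FPKM and a pseudocount of 1. The 3391 genes called in siC_XMU against siC_DMSO became 1680 with 12 libraries and 1854 to 3670 without each library in turn. The causes were not tested.

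Of 6270 values for single genes 6168 kept direction and call. STK4 lost its call without siC_XMU a or c or siYT_DMSO b (adjusted p 0.0641 to 0.0875 by edgeR), LATS1 with 12 libraries (0.0887), and MT2A with 11 libraries and without siC_XMU a or c or siYT_DMSO b. FOSL1 and TRIB3 each lost it without 2 libraries (siC_XMU a or siYT_DMSO c, and siC_XMU b or c), VGLL1 and CHAC1 with voom, IL6 on FPKM with a pseudocount of 1, and CZ1P-ASNS in both of these. Genes not called changed sign near 0, and without each library in turn their log2 fold changes ran from -0.26 to 0.084 for CDC25B (positive without siC_XMU c, and 0.0046 without siYT_DMSO a), -0.30 to 0.011 for COL17A1 and -0.074 to 0.67 for VGLL4 (sign changed without siYT_DMSO b), -0.16 to 0.56 for ECM1 and -0.42 to 0.0069 for TEAD2 (without siYT_DMSO a), -0.43 to 0.033 for TAOK2 (without siC_XMU b or siYT_DMSO a), -0.61 to 0.048 for FJX1 (without siC_XMU c) and -0.12 to 0.38 for ITGA6 (without siYT_DMSO a). From FPKM, ITGA6 gave -0.062 (pseudocount 0.1) and -0.059 (pseudocount 1).

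Shares of promoters with a motif among all higher and all lower genes (given above, and 9.38% and 9.47% for CACGTG, 44.6% and 54.5% for GCGTG) moved, with genes changed at least 4-fold only, to 13.6% and 14.1% (TEAD), 12.5% and 2.57% (AP-1), 3.31% and 13.7% (E2F), 11.0% and 20.4% (TTTGAA), 28.8% and 49.0% (CCAAT), 6.90% and 6.86% (CACGTG) and 35.2% and 51.4% (GCGTG), and for TGACGTCA among higher genes from 2.64% to 1.13%. From FPKM with a pseudocount of 1, which shrinks low genes, list medians were 4.79 (cornified envelope), 2.37 (barrier lipids), 0.25 (NF-kB) and 0.22 (TP63 and basal genes, and NRF2 targets), against 7.28, 5.38, 0.84, 0.43 and 0.37. Depth limits genes near the floor of 3 counts per library, and 3 libraries per group limit small changes.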
